A study of Mus musculus with 12 samples.

Results

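ATAC-seq peak lists from a murine myeloid differentiation model held 491 regions that were absent from the list of cells kept in estradiol (E2) and were called in the lists of 40, 56, 72 and 120 h of E2 withdrawal, with or without that of 24 h. They are termed early gained regions here and made up 3.06% of the 16028 regions formed by merging the 6 lists. Of the 491, 319 were called from 24 h on and 172 from 40 h on. All 1467 regions gained by 120 h, called there and not in continuous E2, made up 9.15%. The early gained regions were chosen by the calls in the lists, so their presence or absence in a list is a description and not a result. The cells were ER-Hoxa9-Lys-GFP cells of the C57BL/6 strain, grown in serum and medium conditioned with stem cell factor (SCF). They are progenitors blocked by a fusion of Hoxa9 with the hormone-binding part of the estrogen receptor, and GFP placed in the lysozyme locus marks those that mature. The 12 libraries fell into 6 groups of 2: continuous E2, 24 h without E2 then 96 h with E2 again (add-back), 40 h then 80 h, 56 h then 64 h, 72 h then 48 h, and 120 h without E2. A single list of positions stood for both libraries of a group, so there were no replicate values, the depth is unknown and no test between samples was made. Nuclei of a preparation were divided between 2 transposition reactions, and the labels do not say whether the paired libraries came from separate cultures. Longer withdrawal came with shorter add-back in 4 of the 6 groups, so the effects of the 2 durations cannot be told apart. Of the 491 regions, 19 lay on chromosomes 18 and 19 under intervals over 10 kb of the continuous E2 list that were dropped as too long to be peaks. Dropped intervals of the 24 h list also covered 19 of the 491. Intervals given below are 95% intervals that cover counting error over regions only.

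ATAC-seq reads DNA that a transposase can reach, which in most cells means active promoters and enhancers. Hoxa9 is a homeobox factor that holds myeloid progenitors in a dividing, immature state, and removal of E2 silences the fusion protein so that the cells mature toward granulocytes and monocytes. In such maturation, enhancers of lineage genes usually open or close, while promoters rich in CpG dinucleotides tend to stay accessible in all cell states. The list for continuous E2 had a peak within 1000 bases of 7 of 8 progenitor genes checked (Spi1, Cebpa, Kit, Cd34, Flt3, Mpo and Myb, but not Csf3r), of 2 of 5 lymphoid genes (Ebf1 and Pax5) and of 1 of 5 erythroid and megakaryocyte genes (Klf1). After cleaning, the lists held 7987 to 13165 peaks each, fewest at 120 h and most in continuous E2.

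The promoters of 10 early gained regions are printed here. They were picked for their width or for a motif match, so they do not stand for the early gained regions as a whole. The first set is of the 3 regions widest at 120 h for which a RefSeq promoter was found (GRCm38.p6, the 250 bases before the gene start, 5′ to 3′ on the strand of the gene). Capitals mark matches on either strand to the CCAAT box, to GGGCGG (the SP and KLF motif), and to the ETS, NRF1, CRE and AP-1 motifs, whose letters, except those of NRF1, are given with the motif counts. Kmt2c lay on the minus strand and was 91.6% G and C, with 12 GGGCGG matches, some of which overlap. Zcwpw1 shares its region with Mepce, was 49.6% G and C, and had no match. Sin3a had 3 CCAAT and 3 GGGCGG matches.
Kmt2c, chr5:25498784-25499033, minus strand: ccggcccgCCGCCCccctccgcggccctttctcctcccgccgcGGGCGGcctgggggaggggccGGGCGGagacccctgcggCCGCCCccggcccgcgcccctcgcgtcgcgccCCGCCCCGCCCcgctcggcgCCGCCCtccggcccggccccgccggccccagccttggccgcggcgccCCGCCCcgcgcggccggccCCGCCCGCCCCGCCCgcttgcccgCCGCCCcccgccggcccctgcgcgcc
Zcwpw1, chr5:137787081-137787330, plus strand: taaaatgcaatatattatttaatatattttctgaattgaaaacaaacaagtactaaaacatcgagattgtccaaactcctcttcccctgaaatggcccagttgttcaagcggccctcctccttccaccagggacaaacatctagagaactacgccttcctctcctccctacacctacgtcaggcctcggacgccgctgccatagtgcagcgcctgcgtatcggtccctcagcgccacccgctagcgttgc
Sin3a, chr9:57076126-57076375, plus strand: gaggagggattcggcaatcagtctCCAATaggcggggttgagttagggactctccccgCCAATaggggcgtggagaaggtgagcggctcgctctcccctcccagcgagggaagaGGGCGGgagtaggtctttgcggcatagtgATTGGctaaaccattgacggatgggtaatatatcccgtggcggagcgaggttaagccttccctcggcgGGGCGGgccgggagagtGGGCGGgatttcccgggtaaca

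The next set holds the named promoters with a cAMP response element (CRE, TGACGTCA) or an AP-1 site (TGANTCA). They serve histone genes (H2bc11, H2ac13) and ribosomal protein genes (Rps9, Rpl9). The others serve Snrpg, a core protein of spliceosomal particles, Cul1, a scaffold of ubiquitin ligases, and Tnfaip3, an inhibitor of NF-kB signalling. H2bc11, Rps9 and Snrpg each had 1 CRE, and H2ac13, Cul1, Rpl9 and Tnfaip3 each had 1 AP-1 match. The histone promoters were poorer in G and C (42.4% for H2bc11 and 39.6% for H2ac13) and had 5 and 4 CCAAT matches. These promoters were picked for such a match. Of the 288 promoter windows of early gained regions, 3.47% held a CRE and 3.82% an AP-1 match. A match is a run of letters and was not tested as a binding site.
H2bc11, chr13:22042948-22043197, plus strand: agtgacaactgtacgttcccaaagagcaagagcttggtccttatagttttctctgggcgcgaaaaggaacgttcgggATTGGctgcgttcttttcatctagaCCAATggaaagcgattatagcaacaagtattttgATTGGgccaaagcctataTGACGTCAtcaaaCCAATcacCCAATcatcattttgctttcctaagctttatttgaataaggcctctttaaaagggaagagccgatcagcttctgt
Rps9, chr7:3703791-3704040, plus strand: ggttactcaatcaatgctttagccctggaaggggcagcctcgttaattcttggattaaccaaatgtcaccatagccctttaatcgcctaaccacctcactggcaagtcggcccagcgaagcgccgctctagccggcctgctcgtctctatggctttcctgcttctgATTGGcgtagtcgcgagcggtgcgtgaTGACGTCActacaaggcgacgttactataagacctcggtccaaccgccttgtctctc
Snrpg, chr6:86371290-86371539, plus strand: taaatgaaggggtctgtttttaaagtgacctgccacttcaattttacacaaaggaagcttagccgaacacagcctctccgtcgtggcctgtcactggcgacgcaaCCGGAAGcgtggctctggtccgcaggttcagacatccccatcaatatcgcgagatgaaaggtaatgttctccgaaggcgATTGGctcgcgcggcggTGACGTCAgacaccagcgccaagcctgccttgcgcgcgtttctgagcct
H2ac13, chr13:21716162-21716411, plus strand: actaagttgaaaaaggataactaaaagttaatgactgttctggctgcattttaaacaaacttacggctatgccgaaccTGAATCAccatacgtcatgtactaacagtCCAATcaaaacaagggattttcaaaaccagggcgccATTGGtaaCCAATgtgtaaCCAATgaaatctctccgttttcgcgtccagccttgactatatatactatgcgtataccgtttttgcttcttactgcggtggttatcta
Cul1, chr6:47454507-47454756, plus strand: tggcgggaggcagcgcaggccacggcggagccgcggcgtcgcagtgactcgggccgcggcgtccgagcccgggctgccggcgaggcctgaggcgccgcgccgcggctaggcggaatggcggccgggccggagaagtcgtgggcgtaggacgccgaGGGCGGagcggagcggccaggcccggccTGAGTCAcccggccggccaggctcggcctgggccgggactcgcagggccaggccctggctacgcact
Rpl9, chr5:65391432-65391681, minus strand: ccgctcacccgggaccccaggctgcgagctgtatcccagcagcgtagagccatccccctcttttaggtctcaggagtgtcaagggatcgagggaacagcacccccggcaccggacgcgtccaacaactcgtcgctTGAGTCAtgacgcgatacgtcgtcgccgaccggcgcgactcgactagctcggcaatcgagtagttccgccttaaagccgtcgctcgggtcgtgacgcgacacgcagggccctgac
Tnfaip3, chr10:19015411-19015660, minus strand: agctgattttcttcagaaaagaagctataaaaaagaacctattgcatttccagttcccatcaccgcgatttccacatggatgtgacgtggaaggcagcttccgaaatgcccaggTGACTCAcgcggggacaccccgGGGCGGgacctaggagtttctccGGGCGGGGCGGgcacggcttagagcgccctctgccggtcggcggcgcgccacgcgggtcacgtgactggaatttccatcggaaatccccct

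The early gained regions lay mainly at gene starts. Of the 491, 344 (70.1%, Wilson interval 65.9 to 73.9) were within 1000 bases of the start of a protein-coding gene, against 53.1% of all union regions. A start with a known strand was near 298 of the 344. For genes of unknown strand either end counted as a start, here and in all shares at a start below. A further 53 lay inside a gene, 66 lay up to 50 kb from the nearest gene and 28 lay farther away. Among regions called from 24 h on, 74.9% were at a start, and among those called from 40 h on, 61.0% were, a difference of 13.9 points (Newcombe interval 5.3 to 22.6). Regions first called in the 56 or 72 h list are termed later gained, where early and later refer to the length of withdrawal. They lay at a start in 69 of 330 cases (20.9%), 49.2 points less often than the early ones (42.8 to 54.8). When narrow peaks, those under the list's median width, were left out, that difference was 16.2 points (8.6 to 24.0). Of the 458 regions called at 120 h alone, 44 (9.61%) were at a start, 60.5 points less often (55.3 to 65.0). The 5265 regions called in all 6 lists, termed constant, were at a start in 83.6% of cases, so the early gained regions were 13.5 points below them (-17.8 to -9.5 as a difference).

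**Figure D1:**
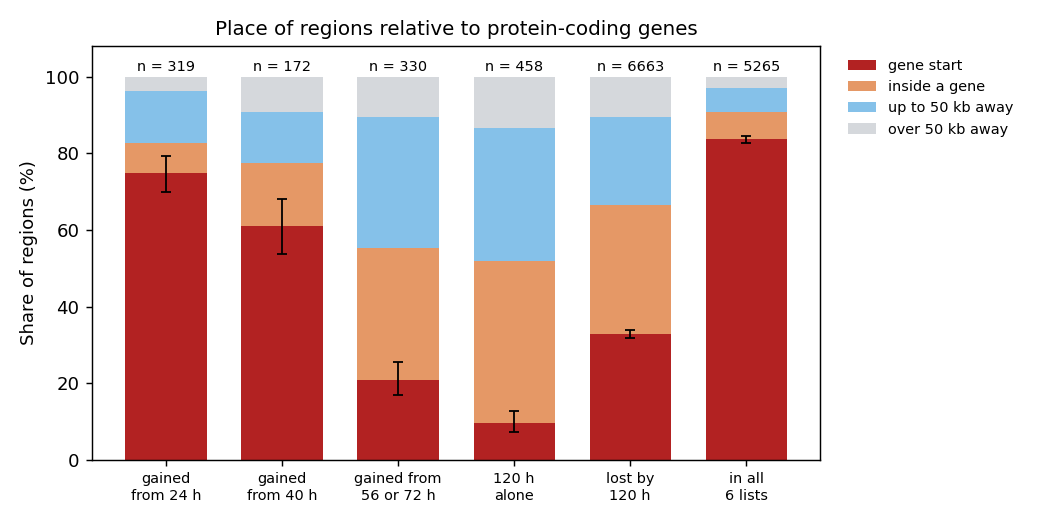
Stacked bars give the share of regions (%) by place relative to protein-coding genes for 6 classes of region, with the number of regions above each bar; error bars are Wilson intervals of the gene start share. The bars for gained from 24 h (74.9% at a start) and from 40 h (61.0%) stand nearer to regions in all 6 lists (83.6%) than to those gained from 56 or 72 h (20.9%).

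Regions missing from a single list other than that of continuous E2 give a scale for these shares. Of the 236 regions missing from the 24 h list alone, 77.5% (71.8 to 82.4) lay at a gene start, and of the 224 missing from the 40 h list alone, 77.7% (71.8 to 82.6) did. Gene starts took 67.1% of 234 regions missing from the 56 h list alone, 77 of 110 missing from the 72 h list alone and 66.9% of 1057 missing from the 120 h list alone, near the 70.1% of the early gained regions. Regions called from 24 h on, which are those missing from continuous E2 alone, differed from those missing from the 24 h list alone by -2.6 points (-9.6 to 4.6), an interval that includes 0. All 491 early gained regions differed from them by -7.5 points (-13.9 to -0.55), an interval that leaves out 0. Whether a region was closed in continuous E2 or was open and not called there cannot be told apart from lists without scores.

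Peaks of the early gained regions were almost as wide as constant peaks where they lay at gene starts, and narrower elsewhere. At starts the median width was 842 bases in the 24 h list (quartiles 684 and 1055.5), 729.5 at 40 h, 620.5 at 56 h, 623 at 72 h and 597.5 at 120 h. Constant peaks at starts had medians of 867, 768, 660, 658 and 628 bases in the same lists. Away from starts the early gained medians were 556.5, 463, 427, 446 and 435 bases against 681.5, 595, 515.5, 512.5 and 506 for constant peaks. Width is the sole graded value in the files, and it is not a count of reads.

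Peaks of both classes were narrower in the lists of longer withdrawal. The lists stand for groups that differ in withdrawal and add-back, and not for successive times of sampling. From the 40 h list to the 120 h list, 376 of 491 early gained peaks were narrower, 109 wider and 6 equal, with a median ratio of 0.859. Constant peaks were narrower in 4586 of 5265 cases, with a median ratio of 0.851. Wider peaks at 120 h were more frequent among the early gained regions, 22.2% (18.7 to 26.1) against 12.5% (11.7 to 13.5). Neither share was split by place. Fewer early gained than constant regions lay at starts (70.1% against 83.6%), and in both classes the medians of these lists differed less away from starts. Most of the difference in early gained peaks lay between the lists of 24, 40 and 56 h. The median ratio was 0.891 from the 24 h to the 40 h list, over the 319 regions called in both. Over all 491 it was 0.881 from 40 to 56 h, 1.01 from 56 to 72 h and 0.979 from 72 to 120 h.

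**Figure D2:**
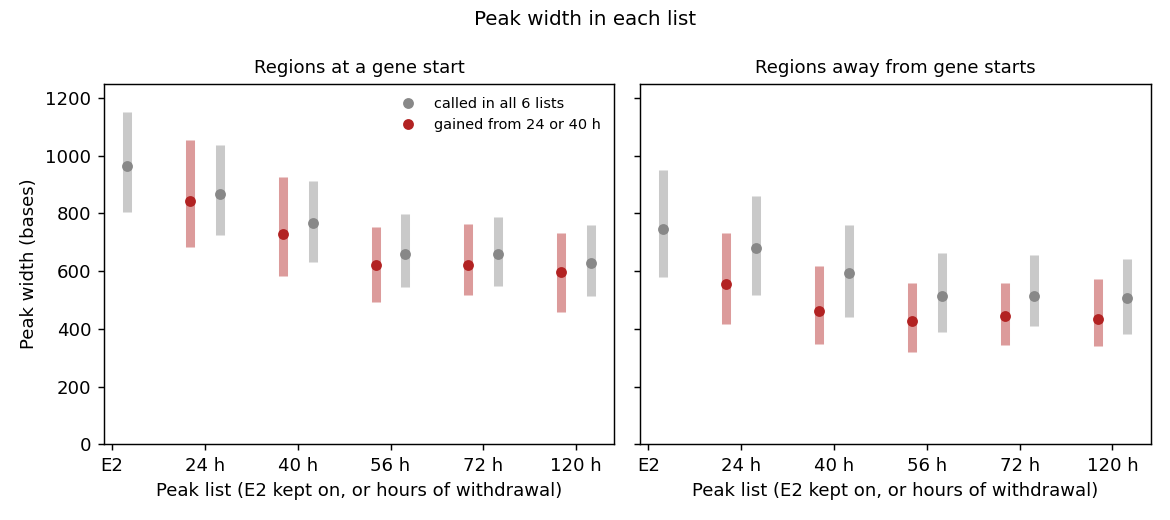
Points are median peak widths (bases) and bars run from the lower to the upper quartile, for each list from continuous E2 (E2) to 120 h, at gene starts on the left and elsewhere on the right. Early gained peaks at starts fall from 842 bases at 24 h to 597.5 at 120 h, next to 867 and 628 for regions called in all 6 lists.

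The peaks of a region also sat on the same bases from list to list. Over the lists of 40 to 120 h, the bases shared by all 4 peaks made up a median of 69.2% of the bases covered by any of them (quartiles 58.4 and 80.2), against 74.4% in constant regions. No region lacked a common base, and 3 of the 491 held 2 or more peaks in some list. Where the region lay at a start, the start base was inside it in 335 of 344 cases (97.4%). For genes of unknown strand that base could be either end of the gene. Its centre lay a median of 5.5 bases downstream of the nearest start with a known strand (quartiles -85.1 and 78.8), against 31 bases for constant regions. These centres are not of like lists, since a constant region also spans its continuous E2 peak. At 120 h, 94.6% of 298 early gained regions at a start with a known strand had a peak over the start. A peak lay 250 bases upstream in 64.1% and 250 bases downstream in 54.0%. For constant regions those shares were 97.6%, 63.9% and 67.1%, so the early gained peaks reached less often into the transcribed side.

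**Figure D3:**
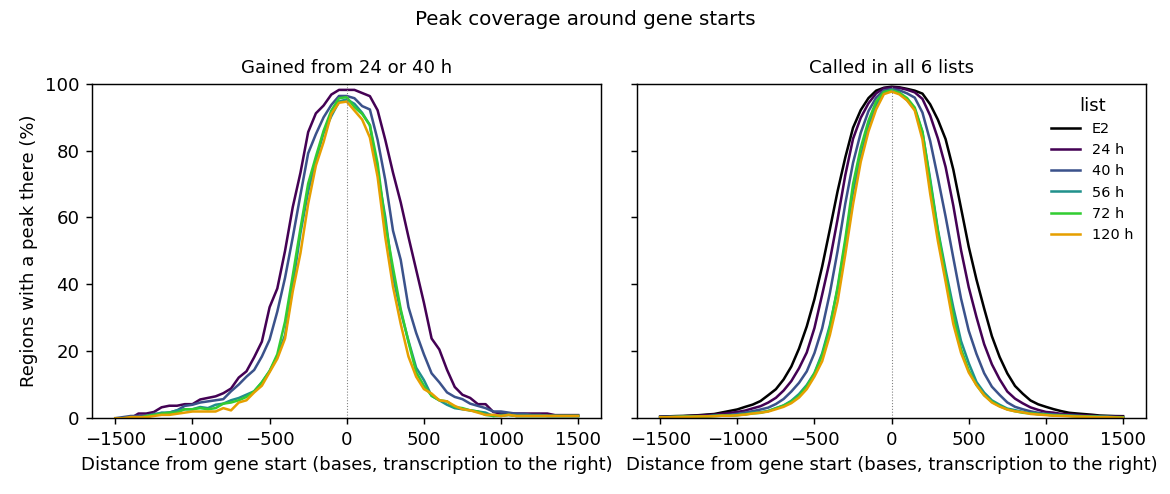
Lines give, for each list, the percentage of regions with a peak at each distance from the gene start (bases, transcription to the right), for early gained regions on the left and regions called in all 6 lists on the right. Both sets peak at the start, and at 120 h the early gained set falls to 54.0% at 250 bases downstream against 67.1%.

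The widest early gained region at 120 h lay inside Ywhaz, which encodes a 14-3-3 adaptor protein (chromosome 15, 36792213 to 36794474, GRCm38). Its width was 2262 bases at 24 h, 2016 at 40 h, 1891 at 56 h, 1646 at 72 h and 1943 at 120 h. The next was at the start of U2af2, a splicing factor subunit that binds the polypyrimidine tract (chromosome 7, 5060901 to 5062781), with 1881, 1715, 1730 and 1691 bases from 40 h on and no peak at 24 h. Both peaks stood far above the medians of all early gained peaks, which were 663 bases at 40 h and 556 at 120 h. Lonrf1, a RING finger gene, had 1809, 1676, 1566, 1673 and 1646 bases from 24 to 120 h.

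Genes of chromatin regulators filled much of the rest of the widest 10. Kmt2c, a histone H3 lysine methyltransferase, had 1650, 1484, 1262, 1315 and 1493 bases from 24 to 120 h (chromosome 5, 25498402 to 25500067). Msl2, a ubiquitin ligase of the MSL acetyltransferase complex, had 1469, 1334, 1252, 1254 and 1252. Sin3a, the scaffold of a histone deacetylase complex, was not called at 24 h and then had 1255, 1294, 1298 and 1262 bases, so its width hardly moved. Morf4l1, a chromodomain protein of acetyltransferase complexes, followed the same calls with 1317, 1271, 1145 and 1232 bases. The other 3 of the 10 were the start shared by Mepce and Zcwpw1 (1369 bases at 120 h), an interval in Cpeb2, which encodes a regulator of mRNA translation (1436), and a region far from genes (1499). Zmym2, a zinc finger gene, was next in width among regions called from 40 h on, with 2034 bases at 40 h and 1162 at 120 h.

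Few genes of the mature myeloid program held these regions, at counts close to what the share over all genes gives for lists of this size. Of all 11463 genes with a region, 511 (4.46%) had an early gained one and 302 (2.63%) had one first called at 56 or 72 h, while 388 (3.38%) had one called at 120 h alone. No early gained region fell to the 22 late neutrophil genes with a region, the 16 primary granule and promyelocyte genes, or the 14 monocyte and macrophage genes. Regions gained at 56 or 72 h fell to 1, 4 and 3 of those genes. Among 25 phagocyte function genes, 1 had an early gained region and 5 had a later one. That gene was Alox5ap, whose product presents arachidonic acid for leukotriene synthesis, and the peak inside it was 374, 514, 427, 365 and 271 bases wide from 24 to 120 h. The lymphoid, erythroid and megakaryocyte, and mast cell, basophil and eosinophil lists, of 9, 6 and 4 genes with a region, had 0 early gained ones.

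Clustered histone genes had the highest share of any list. Of 44 such genes with a region, 13 (29.5%) had an early gained one, 0 a region first called at 56 or 72 h, and 11 a constant one. These 13 genes shared 8 regions on chromosome 13, since neighbouring histone genes use a common promoter stretch, so they are not 13 separate observations. Of the 8, 7 were called from 24 h on and 7 lay at a start. The region over H2ac13, H2bc13 and H3c10 (chromosome 13, 21716034 to 21717238) was 1205, 812, 568, 556 and 817 bases wide from 24 to 120 h. That of H2ac11 and H2bc11 had 1039, 609, 666, 608 and 618 bases, and that of H2ac6 and H2bc4 had 1257, 1174, 672, 691 and 631. H4c3 had 677, 876, 606, 625 and 370 bases. H2ac12 and H2bc12 shared the only one of the 8 called from 40 h on, with 693, 676, 690 and 674 bases. Replication-dependent histone genes are near-identical copies, and how reads with several matching sites were placed is not given in the sources, so a call may belong to a neighbouring copy.

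Cytosolic ribosomal protein genes had early gained regions at 10 of 80 genes (12.5%) and no region first called at 56 or 72 h. All 10 regions lay at a gene start, and 61 of the 80 genes had a constant region, against 49.1% of all genes with a region. Rpl38, of the large subunit, had the widest, with 1238, 1032, 989, 974 and 1016 bases from 24 to 120 h. Rpl9 had 1034, 833, 822, 804 and 666 bases, and Rps3, of the small subunit, 757, 700, 566, 461 and 437. Rps15 had 817, 536, 507, 489 and 487, and Rps9 788, 746, 677, 512 and 580. Rpl35 was steady up to 72 h with 552, 551, 545 and 545 bases and had 490 at 120 h. Rpl14 and Rpl37a were called from 40 h on. Their peaks had 667 and 486 bases at 120 h.

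Histone modifier and chromatin remodeler genes, a list put together after the widest regions had been seen, had early gained regions at 15 of 115 genes (13.0%) and a later gained one at 3. Of the 15 regions, 12 lay at a start. Besides Kmt2c, Msl2, Sin3a and Morf4l1 they included the acetyltransferase genes Kat6b, with 1366, 1253, 1119, 1106 and 1079 bases from 24 to 120 h, and Crebbp, with 1161, 1036, 962, 1020 and 995. Regions at the starts of Hdac5, a deacetylase, Ezh1, a Polycomb methyltransferase, Suv39h1, a methyltransferase of heterochromatin, and Prmt1, an arginine methyltransferase, had 603, 494, 598 and 775 bases at 120 h. The 3 regions away from starts were assigned to Tet2, which oxidises methylated cytosine (37775 bases away), Nsd1 (19065 bases) and Msl1 (4120 bases). Splicing factor genes, also listed afterwards, had early gained regions at 3 of 90 genes (3.33%), near the 4.46% of all genes. They were U2af2, Hnrnpr and Snrpg.

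Regulators of growth and signalling had single regions each. Of 25 Hoxa9-associated and progenitor genes, 4 (16%) had an early gained region, while 22 had a lost one, called in continuous E2 and not at 120 h. Over all genes with a region, 41.4% had a lost one. Zfpm1, a cofactor of GATA factors, had a region at its start of 1042, 966, 986, 1061 and 999 bases from 24 to 120 h, the steadiest of the 4. Ikzf1, which encodes the lymphoid and myeloid regulator Ikaros, had 793, 921, 778 and 679 bases from 40 h on. Narrower regions lay inside Spns2, a sphingosine phosphate transporter (397 bases at 120 h), and Bcl2, an inhibitor of apoptosis (314 bases).

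Of 34 cell cycle genes, 3 had an early gained region. Cdkn1b, the inhibitor of cyclin-dependent kinases known as p27, had one 2540 bases outside the gene with 1108, 1012, 872, 954 and 880 bases. Mcm3, a subunit of the replicative helicase, and E2f3, an activator of S phase genes, had regions at their starts from 40 h on, 579 and 571 bases wide at 120 h. Of 30 AP-1 and immediate-early genes, 3 (10.0%) had an early gained region and 3 a later one. None of the early ones was at a start: they lay 1433 bases from Fosb, 1118 bases from Ier2 and 44384 bases from Ier3. Their widths at 120 h were 435, 323 and 435 bases.

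Of 28 NF-kB and inflammatory genes, Tnfaip3 had 913, 793, 723, 749 and 594 bases, and Nfkbiz, an atypical inhibitor of NF-kB, 1180, 803, 841 and 862 from 40 h on. Of 22 TGF-beta pathway genes, Smad3, a signal transducer, had 1594 bases at 24 h and 621, 677, 662 and 642 after that, and Id1, an inhibitor of helix-loop-helix factors, 718, 472, 524 and 578 from 40 h on. Ubiquitin system genes had 2 of 37, Cul1 (788 bases at 120 h) and the deubiquitinase Usp7 (567). Endosome, lysosome and autophagy genes had 1 of 33, the start that Vps35, a retromer subunit, shares with Orc6. Housekeeping genes had 1 of 28, Ywhaz.

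**Figure D4:**
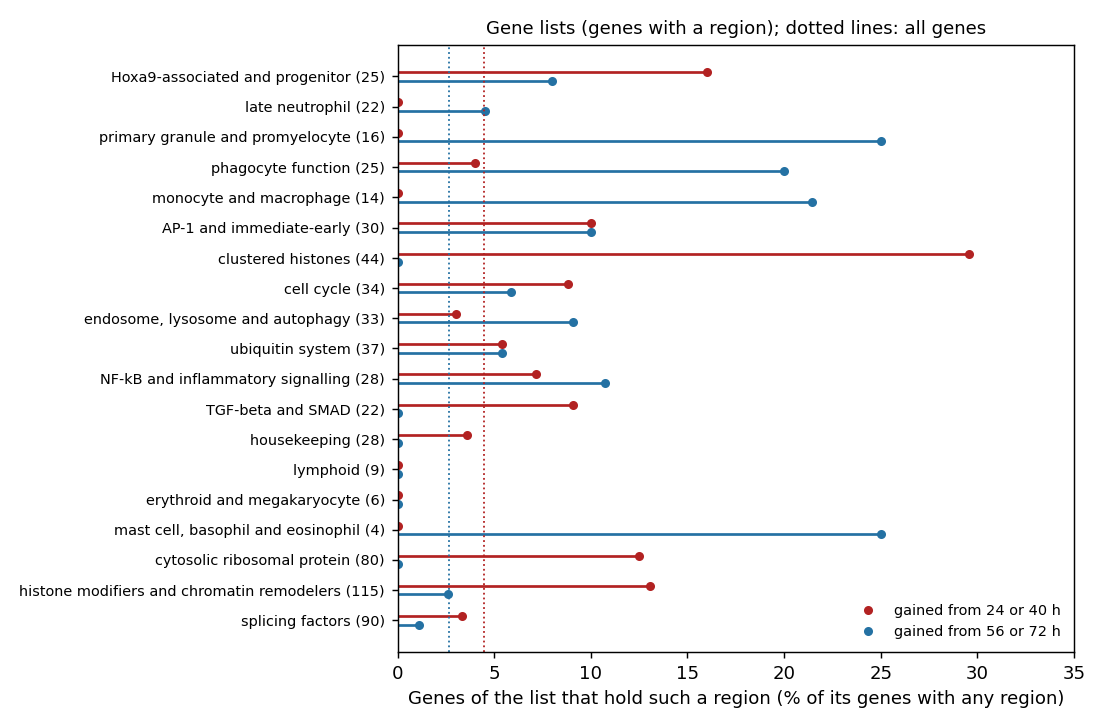
Points give, for each gene list shown, the share of its genes with any region (number in brackets) that hold an early gained region (red) or one first called at 56 or 72 h (blue); dotted lines mark the shares over all genes, 4.46% and 2.63%. Clustered histones reach 29.5% and 0%, where 13 genes share 8 early gained regions. Primary granule, monocyte and late neutrophil genes are at 0 for early gained regions, close to what 4.46% gives for lists of 16, 14 and 22 genes.

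At 7 genes, 2 early gained regions were found. Bach1, a heme-sensing repressor, had a start region of 1484, 781, 669 and 608 bases from 40 h on and another 9505 bases away with 570, 475, 463, 389 and 418 from 24 h on. Abtb2 combined a start region that narrowed from 922 bases at 24 h to 800, 392, 335 and 350 with an internal one that widened from 527 bases at 40 h to 570, 587 and 622. Gda, guanine deaminase, had 2 internal regions on chromosome 19, both under a dropped long interval of the continuous E2 list, with 586, 538, 688 and 707 bases and with 566, 894, 626 and 884 bases from 40 h on. Zswim6 had a start region of 1503, 1358, 1102, 1005 and 1144 bases and an internal one of 445 bases at 120 h. The other 3 genes were Ergic1, H2bc11 and Polr3gl. Most genes had a single region: 295 of the 511 had an early gained region and no other, 141 (27.6%) also had a lost region, 54 (10.6%) a constant one and 9 one first called at 56 or 72 h. Over all genes with a region, those with a lost or a constant one made up 41.4% and 49.1%. These shares are not like for like and cannot be read as a contrast. Each of the 511 genes had already given a region to the early gained class, and the classes exclude each other.

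The early gained region with the largest gain in width from 40 to 120 h lay far from any gene (chromosome 4, 95161080 to 95162686). It was 1607 bases wide at 24 h, 681 at 40 h, 558 at 56 h, 667 at 72 h and 1499 at 120 h, so it was wide in the shortest and the longest withdrawal and narrow between them. The nearest protein-coding gene was Jun, an AP-1 subunit, 108.9 kb away, and another early gained region lay 162.8 kb from Jun on the same side, with 395, 487, 573 and 578 bases from 40 h on. The largest fall was at the start of Cdc14a, a dual-specificity phosphatase, from 2065 bases at 40 h to 1621, 1606 and 852.

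Some regions far from genes had nearly the same width in every list, and most did not. Of the 28 over 50 kb away, 12 (42.9%, 26.5 to 60.9) had a widest peak within 5% of the narrowest over the 40 to 120 h lists, against 10 of 344 (2.91%, 1.59 to 5.27) at gene starts. A region on chromosome 1 (113906524 to 113907233), for example, was 710, 709, 710, 709 and 705 bases wide from 24 to 120 h. Another on chromosome 3 (7188404 to 7189051) had 645, 645, 640 and 643 from 40 h on. Constant regions over 50 kb away had the same feature in 39 of 159 cases (24.5%, 18.5 to 31.8). No interval of the difference between these 2 shares was computed, so whether they differ was not tested. The limit of 5% was set after the widths had been seen.

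No difference in promoter sequence between early gained and constant regions was detected. RefSeq promoter windows (250 bases before to 50 after the start) overlapped 288 of the 491 regions, and 248 of those windows lay wholly inside the region. Their median G and C content was 62.7%, equal to that of 3654 windows in constant regions, and they held a median of 25 CpG dinucleotides against 24. Windows with over 50% G and C and an observed to expected CpG ratio over 0.6 made up 85.4% (80.9 to 89.0), against 87.0% (85.8 to 88.0) in constant regions, 64.6% (50.4 to 76.6) in the 48 windows of regions first called at 56 or 72 h, 26.7% (14.2 to 44.4) in the 30 windows of those called at 120 h alone, and 44.9% of all 21238 promoter windows of protein-coding genes. Most promoters of both the early gained and the constant regions were CpG rich by this measure.

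Motif matches were counted in the same windows. Against constant promoters, the interval of the difference included 0 for all 14 motifs searched. GGGCGG, bound by SP and KLF factors, was in 73.3% of early gained windows, 75.4% of constant ones and 46.2% of all promoters. CCAAT was in 44.1%, 46.4% and 38.2%, and the ETS motif CCGGAAG in 25%, 25.6% and 11.6%. The CRE core TGACG, which lies within TGACGTCA, was in 41.7%, 40.3% and 23.6%, and the full CRE in 3.47%, 4.49% and 2.24%. AP-1 (TGANTCA) was in 3.82%, 3.50% and 6.99%. The E-box CACGTG was in 13.2%, 11.4% and 7.83%, TATAAA in 5.90%, 4.98% and 12.6%, and the NRF1 motif in 3.47%, 3.17% and 1.33%. AAGATGGCG, bound by YY1, was in 3.47%, 4.35% and 1.83%. The Hoxa9 motif TGATTNAT was in 0 of 288 early gained windows, which allows a share of up to 1.32% (Wilson upper bound), against 0.63% of constant and 2.75% of all windows. The Meis motif TGACAG was in 17.4%, 16.6% and 18.7%, and TGTGGT, bound by RUNX factors, in 12.2%, 11.1% and 15%. The C/EBP motif TTGCNNCAA was in 1.74%, 1.31% and 1.79%. In the 48 windows of regions first called at 56 or 72 h it was in 5 (10.4%), against 5 of the 288 early gained ones. That was 8.7 points more (2.4 to 20.5), and C/EBP was 1 of 2 motifs out of 14 whose interval left out 0 in that comparison. The other was the Hoxa9 motif, in 2 of the later windows (4.17%). The later windows were less often CpG rich (64.6% against 85.4%), and they were not compared among CpG-rich windows alone. Among CpG-rich windows alone, 246 early gained and 9533 of all promoters, GGGCGG was in 76.8% and 77.0%, and AP-1 in 3.25% and 3.23%. CCAAT was in 38.6% and 36.0%, and TATAAA in 5.28% and 4.50%. The ETS motif was in 28.0% and 20.1%, and the CRE core in 41.5% and 35.5%.

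**Figure D5:**
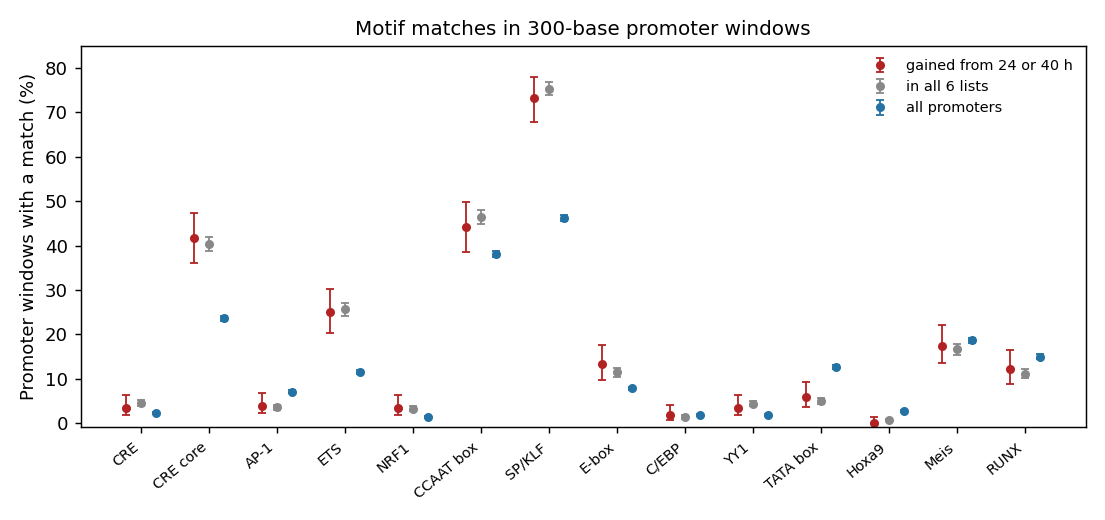
Points are the shares of 300-base promoter windows (%) with a match to each motif on either strand, and bars are Wilson intervals, for early gained regions (red), regions called in all 6 lists (grey) and all promoters of protein-coding genes (blue). Red and grey intervals overlap, as at SP/KLF with 73.3% and 75.4%, while all promoters stand at 46.2%. Among CpG-rich windows alone, not drawn, SP/KLF was in 76.8% of early gained windows and 77.0% of all promoters.

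The nearest continuous E2 peak lay a median of 24784 bases from an early gained region (quartiles 11082 and 55084), and for 1 of the 491 it was within 1000 bases. Among the closest were the region at the start of Ints1, a subunit of the Integrator complex (652 bases), and one inside Aim2, a sensor of cytosolic DNA (1122 bases). Just outside the rule, regions called in all 6 lists shared as few as 220 bases with a continuous E2 peak (inside Elovl6) and 223 bases at 2 places on chromosomes 16 and 5, because the peaks there were themselves that narrow. Of the early gained regions, 60 (12.2%, 9.61 to 15.4) had a lost region within 10 kb and 47 (9.57%, 7.28 to 12.5) a constant one. For constant regions the share with a lost neighbour was 8.77% (8.04 to 9.57), and for regions first called at 56 or 72 h it was 17% (13.3 to 21.4).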

How the data were processed

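The data were ATAC-seq peak positions from 12 libraries, 2 in each of 6 groups. The deposited lists give chromosome, start and end per peak, with no score, count or p-value, and 1 list stood for the 2 libraries of a group. BWA, MACS2 2.0, STAR 2.5 and the build mm9 are named in the submitters' processing notes, with no role. The coordinates fitted GRCm38 genes instead: 56.0% to 75.0% of the peaks of a list lay near a gene start, and 6.51% to 7.04% did after a shift of 50000 bases. GRCm38.p6 RefSeq tables were therefore used. Python 3.11.15 with numpy 2.4.6 dropped exact duplicates and intervals over 10000 bases, merged overlaps within a list and joined lists by 1 shared base or more. Genes within 50 kb were assigned to regions. Place, coverage and motifs were counted with Wilson or Newcombe intervals, after tests on simulated data. Gene starts were within 1000 bases, and where the strand was unknown either end of the gene was used. RefSeq promoter windows were found for 17492 of 21900 protein-coding genes. For the other genes the far end can count as a start, and a start within the gene may count as inside it. The members, the lists and the alternatives were chosen with earlier results of these data known. The text names genes with 2 members, the widest members, list genes with a member, the members nearest to the rule's limit and the largest width changes. A few genes and 1 gene list are not reported here.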

Additional observations from a re-analysis of the deposited data

Results flagged for a closer look

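The list of 24 h withdrawal held 16 intervals over 10 kb, which no comparison used, against 14 in the list of continuous E2. Between 1 and 3 such intervals were in each later list. The intervals of the continuous E2 list covered 19 of the 491 early gained regions, and those of the 24 h list also covered 19. Intervals of the 40 and 56 h lists covered 13 each, and those of the 72 and 120 h lists 8 each. A region under a dropped 24 h interval could lack a 24 h call because of the cleaning, and how far this bears on the split by the 24 h list was not tested. Whether the dropped intervals hold peaks was not tested.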

How the results depend on the processing

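Of 38 alternatives, 27 left a result within its limits, 11 moved it and 0 reversed it. Leaving out peaks under the list's median width, 286 regions met the rule, of which 147 overlapped one of the 491. Their gene start share was 85%, the difference from later gained regions 16.2 points and the median width at 120 h 708 bases. With lists cut to equal length by width, 1036 regions met it, of which 347 overlapped one of the 491, with a share of 79.2% and a difference of 35.8 points. With the 24 h list required, 319 regions remained and 74.9% lay at a start. Taking the start or end of every protein-coding gene, chosen after seeing the data, gave 65.2%. With 50% reciprocal overlap the median width at 120 h was 586 bases. Without the regions under dropped continuous E2 intervals, also chosen afterwards, 472 remained, with 70.1% at a start. The cause of these changes was not tested. No paired analysis was possible because the libraries of a group share 1 list of peaks, and for the same reason no replicate could be left out. Without scores, a region that was not called cannot be told apart from one that was closed.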

Other observations

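Precursor genes of 5 microRNAs lay within 1000 bases of an early gained region: Mir1900 (by Icam5), Mir5100 (by Mief2), Mir8102 (by Pip4k2b), Mir8101 (by Hdac5) and Mir6935 (by Actg1). All 5 regions lay at the start of a protein-coding gene. The share over all regions was not counted, so this number cannot be read as high or low. Of the 147 early gained regions away from protein-coding starts, 36 (24.5%) lay within 1000 bases of a non-coding gene, against 24.9% of such constant regions and 15.7% of those first called at 56 or 72 h. Chromosome 11 held most early gained regions, 57, or 5.14% of its union regions, and chromosome 18 held 5, or 1.13% of its union regions. Over all chromosomes the share was 3.06%.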
